A study of Mus musculus with 6 samples.

Results

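Complement and coagulation factors, the plasma proteases, cofactors and inhibitors that the liver secretes, were examined in livers of obese mice with isolated steatosis and with nonalcoholic steatohepatitis (NASH). The 40 genes were taken by symbol, 20 of the complement system and 20 of coagulation and fibrinolysis. The rule names symbols and uses no measured value, but the list was drawn up with earlier results of these data known. Of these, 39 were matched to 1 of the 39179 Ensembl gene identifiers in the count files, and 38 passed the filter on low counts, out of 11375 genes that passed it. Klkb1 (plasma prekallikrein) was not matched and is not analysed here. Cfb, complement factor B, had 0 to 4 counts in each library and was not tested.

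Both groups were C57BL/6J mice (the strain label reads C57BL/6), fed from the age of 5 weeks, for 21 weeks, on a high-fat diet in which fat supplied 60% of the energy. The steatosis group and the NASH group, 3 liver samples each, were separated by haematoxylin and eosin staining of liver biopsies, so they are histological classes of animals on a single diet, and no lean group was analysed here. The labels name no other allele or agent, and they do not say outright that each sample is a separate mouse. The p-values set the group difference against the spread between samples within a group, and whether that is spread between mice is not known. The comparison bears on the transition from steatosis to NASH, which the labels name as the question of the study.

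Complement is a cascade in which recognition molecules of the classical and lectin pathways activate serine proteases that cleave C4, C2 and C3, after which the terminal components C5 to C9 assemble into a membrane pore. Coagulation is a parallel cascade of serine proteases that ends in thrombin, which turns fibrinogen into fibrin, and plasmin dissolves the clot. Hepatocytes are the main source of most of these proteins in plasma, and several of them, fibrinogen and C3 among them, are acute-phase proteins whose transcription responds to interleukin-6 and related cytokines.

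Counts summed to between 13909238 and 18002095 per library. Mitochondrially encoded genes took 62.0% to 83.9% of them, and 4 loci with rRNA-like sequence took 22.3% of NASH 3, 8.96% of steatosis 2 and 0.60% to 1.06% of the rest. Between 2185922 and 5149189 counts fell on other genes, of which the 39 genes held 2.10%, 2.78% and 3.42% in steatosis and 3.30%, 2.31% and 3.95% in NASH. Levels are given below as CPM, a read count relative to the library size after TMM scaling, in the order of libraries 1, 2 and 3 of a group, and the mean is given with the SD of 3 libraries. Hepatocyte markers were abundant in every library: the 9 measured markers, albumin among them, summed to 14552 to 18367 CPM in steatosis and 12073 to 13754 CPM in NASH, with no overlap between the groups. The sum does not describe each marker: of the 9, 6 had a fitted change below 0 in NASH and 3 above. Apoa1 was higher in every NASH library, at means of 2031 CPM in steatosis and 2873 CPM in NASH.

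Across the 2 cascades, the terminal complement genes C6 and C9 were higher in NASH, and no other gene of the 38 passed the threshold, an adjusted p under 0.05 in edgeR's quasi-likelihood test. The 2 calls are 5.26% of the 38 genes, against 4.82% of all tested genes called in either direction. Both calls were higher in NASH, where 1.49% of all tested genes were called higher, and 0 of the 38 were called lower, against 3.33% of all tested genes. The groups did not overlap in 11 of the 38 genes, 6 higher and 5 lower in NASH, which is 28.9% against 29.3% of all tested genes (13.1% higher and 16.2% lower). An unadjusted p under 0.05 was found for 9 of the 38 genes, or 23.7%, against 23.2% of all tested genes. The shares called in either direction, without overlap and at an unadjusted p under 0.05 lie near the background, and the calls by direction rest on 2 genes. The median log2 fold change of NASH over steatosis was 0.07 for the 38 genes and 0.01 for all tested genes, with 22 genes above 0 and 16 below, from -0.67 to 1.26.

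By cascade the counts were as follows. Of 19 tested complement genes 2 were called and the median log2 fold change was 0.25. Of 19 tested coagulation genes 0 were called by edgeR, 4 had an unadjusted p under 0.05, and the median was 0.02. DESeq2 and limma-voom also called 0 of the coagulation genes. The difference between the cascades was not tested. In bulk tissue, fewer cells of a type and less RNA per cell cannot be told apart, and this holds for every value given here.

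**Figure D1:**
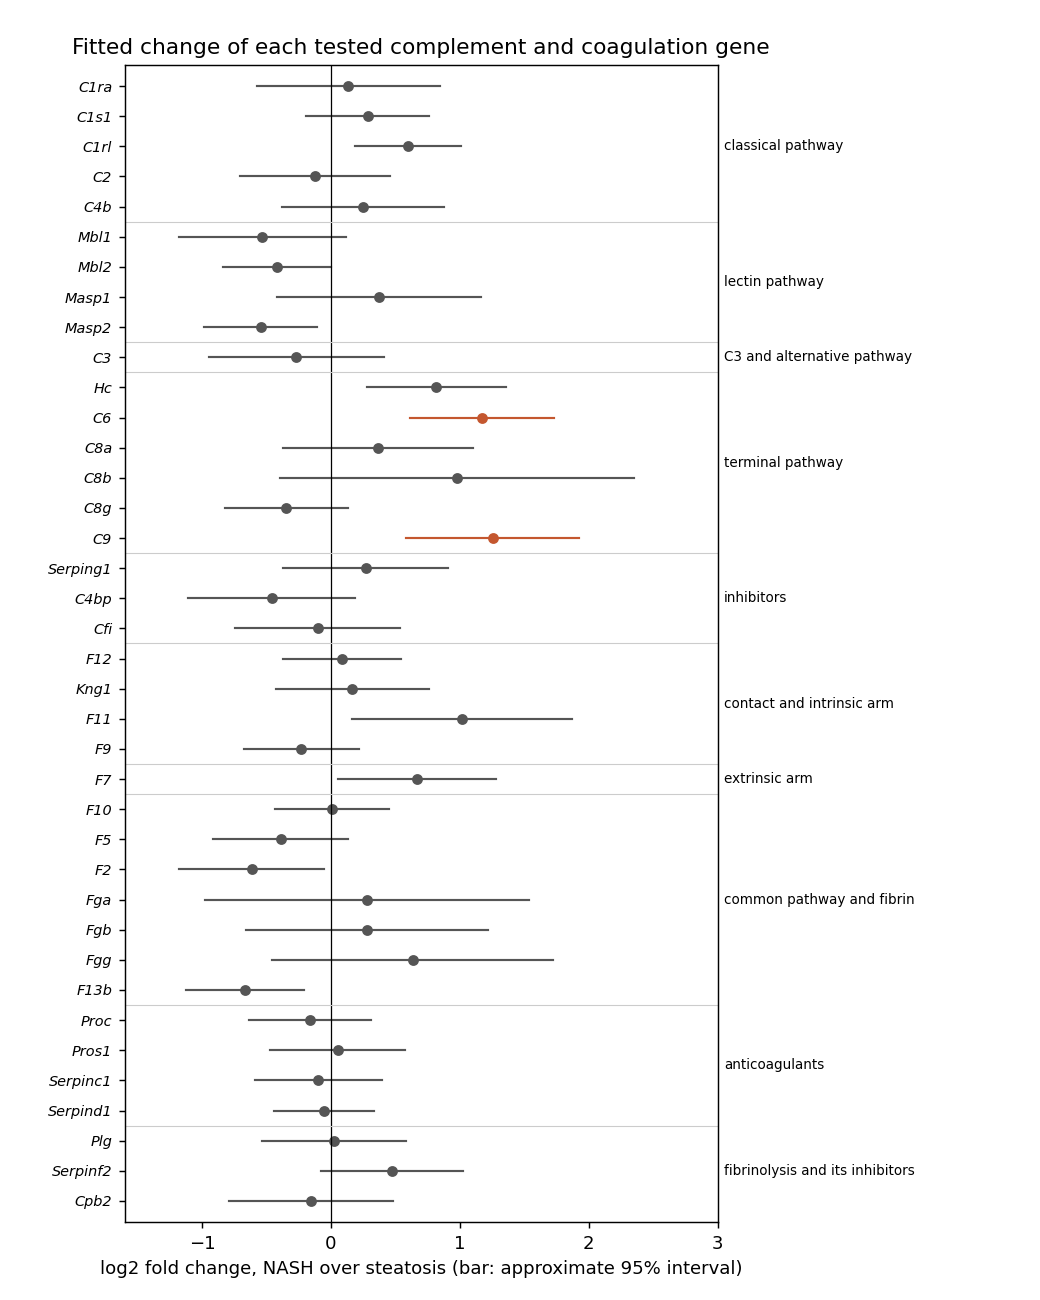
Log2 fold change of NASH over steatosis for each of the 38 tested genes (x axis), grouped by pathway arm, with bars for the approximate 95% interval of the edgeR fit. The 2 genes called at an adjusted p under 0.05, C6 and C9 at 1.17 and 1.26, are in orange and lie in the terminal pathway, while most other intervals include 0.

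In the classical pathway, where C1r and C1s cleave C4 and C2, 0 of 5 genes were called and the median log2 fold change was 0.25. C4b encodes C4, the source of the C4b fragment that binds covalently to targets, and it had the highest level per kb of exon in the arm. It measured 335, 390.4 and 508 CPM in steatosis and 502, 350.1 and 613 CPM in NASH. The groups overlapped, and the log2 fold change was 0.25 (SE 0.28, adjusted p = 0.645 in edgeR). C1rl, a protease related to C1r, measured 18.2, 22.1 and 20.3 CPM in steatosis and 29.9, 28.1 and 33.6 CPM in NASH. Every NASH library lay above every steatosis library, at a log2 fold change of 0.59 (SE 0.19), but the adjusted p was 0.0908 in edgeR. The proteases C1ra and C1s1 and the C4b-binding zymogen C2 had log2 fold changes of 0.13, 0.28 and -0.12, with overlapping groups. C4b, C1ra and C1s1 each have a near-identical copy in the mouse (C4a, C1rb and C1s2), so their counts are uncertain. C2 shares 1656 exon bases with the readthrough gene Gm20547 on the same strand.

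In the lectin pathway, 0 of 4 genes were called, and 3 of the 4 estimates were below 0 (median -0.48). Masp2, the protease that cleaves C4 and C2 after a lectin has bound sugar, measured 27.5, 27.0 and 22.6 CPM in steatosis and 17.0, 15 and 20.9 CPM in NASH. All 3 NASH libraries lay below the steatosis libraries, with a log2 fold change of -0.55 (SE 0.20, adjusted p = 0.129 in edgeR). Masp2 shares 1817 exon bases with Tardbp on the opposite strand, and since the strand setting of the counting is not known, reads of the 2 genes cannot be told apart. C1s1, Hc, F5, Fgg, Plg and Serpinc1 also share between 76 and 2942 exon bases each with a gene on the opposite strand. Mbl2, a mannose-binding lectin, measured 33.5, 35.96 and 39.3 CPM in steatosis and 25.7, 25.5 and 30.1 CPM in NASH. Its groups did not overlap either, at a log2 fold change of -0.42 (SE 0.19, adjusted p = 0.216 in edgeR). Mbl1, the other mannose-binding lectin, had a similar estimate of -0.53, but its groups overlapped (adjusted p = 0.305). Masp1, a protease that associates with the lectins, had only 20 to 60 counts per library.

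C3, the component on which the pathways converge, was the most abundant of the genes per kb in steatosis. It measured 743, 1153 and 1059 CPM in steatosis and 1021, 548 and 883 CPM in NASH. The lowest library was NASH 2 and the highest steatosis 2, the groups overlapped, and the log2 fold change was -0.27 (SE 0.31, adjusted p = 0.644 in edgeR). Its approximate 95% interval ran from -0.95 to 0.41, which spans both a lower and a higher level in NASH. For Cfb, the protease of the alternative pathway, 2246 of its exon bases are shared with Gm20547 on the same strand, which was listed at 0 counts in every library. The low count of Cfb therefore cannot be read as a low level of its RNA, since it is not known how the counting dealt with shared reads.

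The terminal pathway held both called genes. C6, which joins C5b and starts the pore complex, measured 33.8, 18.6 and 20.6 CPM in steatosis and 52.8, 52.8 and 58.6 CPM in NASH. All NASH libraries lay above all steatosis libraries, and the means were 24.3 ± 8.25 and 54.7 ± 3.33 CPM (SD, n = 3 each). The fitted fold was 2.25, with an approximate 95% interval of 1.53 to 3.32 (log2 fold change 1.17, SE 0.25, adjusted p = 0.0314 in edgeR). C9, the component that polymerises to form the wall of the pore, measured 38.3, 47.4 and 30.8 CPM in steatosis and 93.2, 58.5 and 127 CPM in NASH. Again the groups did not overlap, although NASH 2 lay much nearer to the steatosis libraries than NASH 1 and 3 did. The means were 38.8 ± 8.30 and 92.8 ± 34.0 CPM, a fitted fold of 2.39 with an interval of 1.5 to 3.80 (log2 fold change 1.26, SE 0.30, adjusted p = 0.0454 in edgeR).

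These calls rest on all 6 libraries. When each library was left out in turn, the estimate for C6 stayed between 1.01 and 1.49 and that for C9 between 0.98 and 1.52. C6 was called in 1 of these 6 fits, the one without steatosis 1, and its adjusted p reached 0.134 without steatosis 2. C9 was also called in 1, the one without NASH 2, and its adjusted p reached 0.143 without steatosis 1. In the 4 libraries with few reads at rRNA-like loci the estimates were 0.96 (adjusted p = 0.218 in edgeR) for C6 and 1.14 (adjusted p = 0.178) for C9.

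Hc, which encodes C5, the source of the anaphylatoxin C5a and of C5b, measured 202, 200.3 and 228 CPM in steatosis and 398, 285 and 428 CPM in NASH. Every NASH library lay above every steatosis library, but the log2 fold change of 0.82 (SE 0.24) had an adjusted p of 0.0820 in edgeR. DESeq2 called it, with an adjusted p of 0.0115, and limma-voom did not. Within each library, C6 per kb stood at 0.294, 0.163 and 0.159 of Hc in steatosis and at 0.234, 0.326 and 0.241 of Hc in NASH, so the ratios overlapped between the groups. C9 per kb stood at 0.464, 0.580 and 0.331 of Hc in steatosis and at 0.574, 0.503 and 0.725 in NASH, which overlapped as well. Set against C8a, C9 per kb stood at 0.482, 0.519 and 0.284 in steatosis and at 1.05, 0.724 and 0.668 in NASH, without overlap. C6 per kb stood at 0.306, 0.146 and 0.137 of C8a in steatosis and at 0.426, 0.469 and 0.222 in NASH, with overlap.

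The 3 chains of C8, chosen for display after their values were seen, differed in direction, and 0 of them were called. C8b, the chain that binds C5b to C7, measured 6.28, 12.3 and 8.46 CPM in steatosis and 14.5, 3.21 and 36.1 CPM in NASH. NASH held both its lowest and its highest library, 11.2 times apart, and the log2 fold change of 0.98 had an SE of 0.62 (adjusted p = 0.377 in edgeR). It ranged from -0.02 to 1.5 as single libraries were left out. With no filter on low counts the adjusted p of C8b was 0.00191 in edgeR. Its spread within groups was nonetheless larger than that of 99.5% of tested genes. That unfiltered fit called 535 genes higher and 912 lower, against 169 and 379 in the main fit. C8a, the chain that inserts into the membrane, measured 113, 129.99 and 154 CPM in steatosis and 127, 115 and 269.6 CPM in NASH, where NASH 3 alone stood above the rest (log2 fold change 0.36, adjusted p = 0.553). C8g, the lipocalin chain, measured 78.6, 71.0 and 58.0 CPM in steatosis and 51.9, 51.1 and 60.4 CPM in NASH, overlapping, with a log2 fold change of -0.35 (adjusted p = 0.368 in edgeR). Per kb, C8g stood at 1.70, 1.33 and 0.916 of C8a in steatosis and at 0.997, 1.08 and 0.545 in NASH. The median log2 fold change of the 6 terminal genes was 0.90. Of the 6, 3 (50%) had groups that did not overlap, all higher in NASH. Among all tested genes, 13.1% were higher in NASH without overlap. The difference between this arm and the others was not tested.

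**Figure D2:**
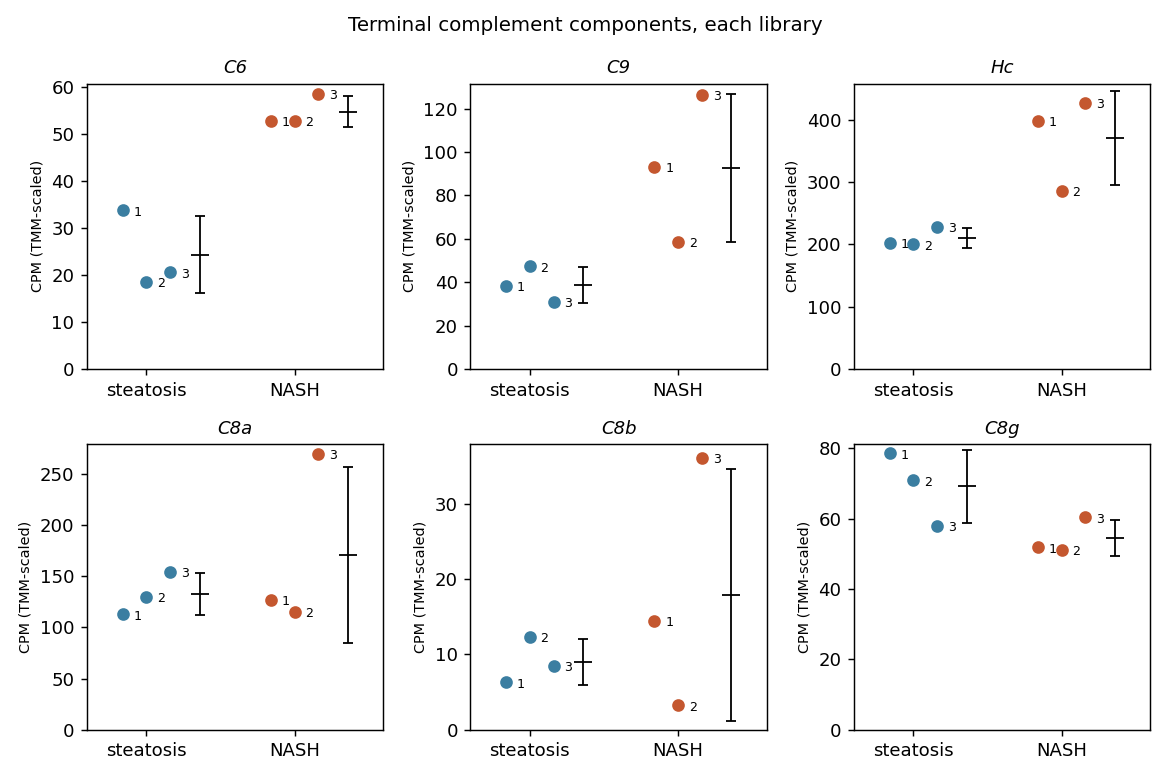
CPM (TMM-scaled) of 6 terminal complement genes in each library, numbered by replicate, with the mean and SD of 3 libraries beside the points. C6, C9 and Hc are higher in all NASH libraries than in all steatosis libraries, while C8a, C8b and C8g overlap between the groups.

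C6 and C9 both lie on chromosome 15, at chr15:4727175-4814967 and chr15:6445327-6498751 of GRCm38, both on the plus strand and 1.63 Mb apart. Of the 17 genes with a row in the files between them, 4 were tested and 0 were called by edgeR, with a median log2 fold change of -0.02. C7, a further terminal component, lies between C6 and C9 and was not tested, with 1 to 8 counts per library. The bases just upstream of the 2 called genes and of Hc are shown because these 3 terminal genes had the non-overlapping groups. They are from RefSeq on build GRCm38.p6, in the direction of the gene, and end where the GENCODE gene begins: chr15:4726960-4727174 (+) for C6, chr15:6445096-6445326 (+) for C9 and chr2:35061439-35061662 (-) for Hc. Capitals mark matches to 4 short motifs searched on both strands in the 250 bases before each RefSeq start. These were GTTAAT, a half-site of the hepatocyte factor HNF1, TTGCNNAA for C/EBP factors, CTGGGAA, the core of an interleukin-6 response element, and TTCNNNGAA for STAT factors.
C6: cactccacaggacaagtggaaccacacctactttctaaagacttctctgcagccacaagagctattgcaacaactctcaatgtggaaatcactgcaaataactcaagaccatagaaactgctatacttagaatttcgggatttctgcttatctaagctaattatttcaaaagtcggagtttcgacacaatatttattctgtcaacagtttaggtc
C9: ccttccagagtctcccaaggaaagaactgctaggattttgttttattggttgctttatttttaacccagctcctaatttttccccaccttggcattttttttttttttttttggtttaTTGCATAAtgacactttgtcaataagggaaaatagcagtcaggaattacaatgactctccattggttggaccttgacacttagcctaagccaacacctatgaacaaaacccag
Hc: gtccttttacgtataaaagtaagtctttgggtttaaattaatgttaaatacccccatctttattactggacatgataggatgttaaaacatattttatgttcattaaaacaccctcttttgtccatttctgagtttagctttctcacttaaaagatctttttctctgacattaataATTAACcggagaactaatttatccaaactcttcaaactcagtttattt
C9 held a C/EBP match and Hc an HNF1 half-site on its opposite strand, and C6 held no match, which says only that these letters are not in this window.

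Of the 39 genes, 30 had a RefSeq window. GTTAAT was found in 8 of the 30 (26.7%) and in 7.49% of all 27025 genes with a window. TTGCNNAA was found in 8 (26.7%), against 10.8% of all genes. CTGGGAA was found in 5 (16.7%) against 10.4%, and TTCNNNGAA in 6 (20%) against 8.13%. The letters of CTGGGAA on the opposite strand can lie within TTCNNNGAA, as they do upstream of Masp2 and F9. The same bases there count for both motifs. A match describes letters and is not evidence of a bound factor.

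Among the complement inhibitors, 0 of 3 genes were called, with a median log2 fold change of -0.10. C4bp, the C4b-binding protein, measured 52.7, 73.9 and 85.3 CPM in steatosis and 46.9, 36.03 and 71.2 CPM in NASH. The groups overlapped, at a log2 fold change of -0.46 (SE 0.29, adjusted p = 0.378 in edgeR). Serping1, the C1 inhibitor that also restrains factor XII and kallikrein, measured 110.0, 78.8 and 140.3 CPM in steatosis and 113, 107 and 177 CPM in NASH, which overlapped (log2 fold change 0.27, SE 0.29, adjusted p = 0.623). Cfi, factor I, which degrades C3b and C4b, had a log2 fold change of -0.10.

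In the contact and intrinsic arm, 0 of 4 genes were called, and the median log2 fold change was 0.13. F11, factor XI, the zymogen that activates factor IX, measured 4.81, 14.3 and 13.7 CPM in steatosis and 15.9, 19.3 and 31.8 CPM in NASH. The groups did not overlap, but steatosis 1 stood far below the other steatosis libraries. The log2 fold change of 1.02 (SE 0.39) had an adjusted p of 0.146 in edgeR, or 0.00126 with no filter on low counts. The spread of F11 within groups was larger than that of 96.8% of tested genes. Kng1, the kininogen that carries prekallikrein and releases bradykinin, was the most abundant of the arm, at 529.9, 591 and 545 CPM in steatosis and 581, 469 and 819.9 CPM in NASH. NASH 2 was the lowest and NASH 3 the highest of its 6 libraries, with a log2 fold change of 0.17 (SE 0.27, adjusted p = 0.760). Kng1 has a near-identical copy, Kng2, and its counts are uncertain. F12, factor XII, and F9, factor IX, had log2 fold changes of 0.09 and -0.23.

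F7, factor VII, the protease that starts clotting when it meets tissue factor, measured 9.98, 13.9 and 18.3 CPM in steatosis and 18.1, 18.5 and 30.6 CPM in NASH. Steatosis 3 lay just above NASH 1, so the groups overlapped, and the log2 fold change of 0.66 (SE 0.28) had an adjusted p of 0.183 in edgeR. F10, factor X, the protease that F7 activates, shown after its values were seen, was among the steadiest of the genes: 74.2, 83.1 and 80.7 CPM in steatosis and 81.1, 80.6 and 77.6 CPM in NASH. Its log2 fold change was 0.01, with an interval of -0.44 to 0.45.

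The common pathway, with 7 genes, had 0 calls and a median log2 fold change of 0.01. F2, prothrombin, measured 274, 357 and 334 CPM in steatosis and 260.1, 164 and 207 CPM in NASH. Every NASH library lay below every steatosis library, at a log2 fold change of -0.61 (SE 0.25, adjusted p = 0.181 in edgeR). F13b, the carrier subunit of the fibrin-crosslinking factor XIII, measured 15.4, 16.2 and 12.6 CPM in steatosis and 10.3, 7.23 and 10.3 CPM in NASH. Its groups did not overlap either, with a log2 fold change of -0.67 (SE 0.21, adjusted p = 0.0900), the most negative estimate among the 38 genes. With no filter on low counts the adjusted p of F13b was 0.0434. F5, factor V, the cofactor of factor Xa, had a log2 fold change of -0.39 with overlapping groups (adjusted p = 0.354).

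The 3 fibrinogen chains were among the most abundant and the most variable of the genes. Fgg, the gamma chain and the highest of the arm per kb, measured 189.8, 286 and 428 CPM in steatosis and 466, 162 and 774 CPM in NASH. The lowest and the highest library were both NASH livers, and the log2 fold change of 0.63 had an SE of 0.49 (adjusted p = 0.480 in edgeR). Fga, the alpha chain, named together with Fgb after their values were seen, measured 137, 219.6 and 662 CPM in steatosis and 420.1, 186 and 633 CPM in NASH. Fgb, the beta chain, measured 314, 438 and 667 CPM in steatosis and 559, 267 and 894 CPM in NASH. NASH 2 and steatosis 1 were the lowest libraries for all 3 chains, and NASH 3 was the highest or next to it. The log2 fold change was 0.28 for Fga (adjusted p = 0.814 in edgeR) and 0.28 for Fgb (adjusted p = 0.743). As single libraries were left out, that of Fga ranged from -0.15 to 1.23.

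The spread within groups of Fga, an SD of 1.04 on the log2 scale, was larger than that of 99.2% of tested genes. For Fgg it was 0.91, larger than 98.7%, and for Fgb 0.73, larger than 97.4%. The highest Fga library stood 4.84 times above the lowest in steatosis and 3.39 times in NASH. The chains took 13.8%, 16.8% and 26.9% of the counts of the 39 genes in steatosis and 23.3%, 14.6% and 29.4% in NASH. Per kb, Fgg stood at 1.10, 1.19 and 1.17 of Fgb in steatosis and at 1.52, 1.11 and 1.58 in NASH. Fga stood at 0.552, 0.634 and 1.26 of Fgb in steatosis and at 0.951, 0.886 and 0.897 in NASH, so Fga exceeded Fgb in steatosis 3 alone.

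**Figure D3:**
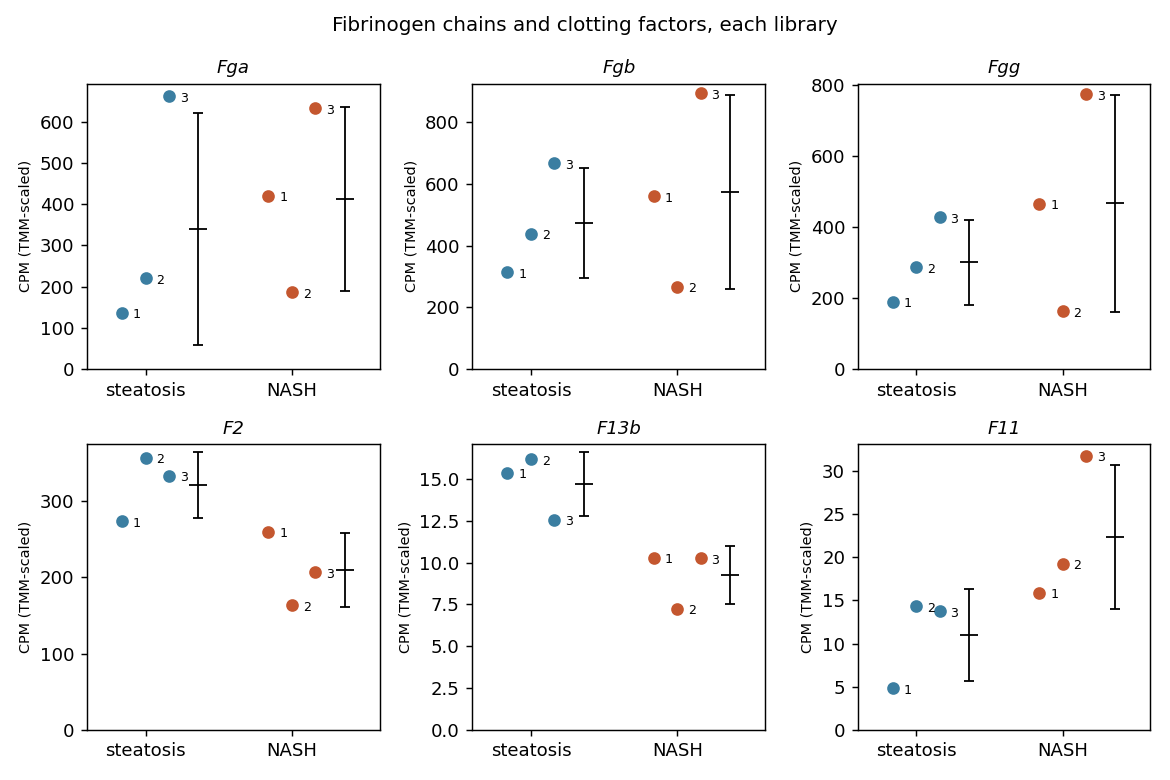
CPM (TMM-scaled) of the 3 fibrinogen chains and of F2, F13b and F11 in each library, numbered by replicate, with the mean and SD of 3 libraries. The fibrinogen chains overlap widely between the groups, F2 and F13b are lower and F11 higher in every NASH library than in every steatosis library, and none of the 6 was called.

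The 3 fibrinogen genes lie side by side on chromosome 3. Their upstream bases are shown because the 3 chains shared their lowest libraries: chr3:83007474-83007723 (+) for Fgg, chr3:83025903-83026075 (+) for Fga and chr3:83049864-83050113 (-) for Fgb, from RefSeq on GRCm38.p6, with the same 4 motifs in capitals.
Fgg: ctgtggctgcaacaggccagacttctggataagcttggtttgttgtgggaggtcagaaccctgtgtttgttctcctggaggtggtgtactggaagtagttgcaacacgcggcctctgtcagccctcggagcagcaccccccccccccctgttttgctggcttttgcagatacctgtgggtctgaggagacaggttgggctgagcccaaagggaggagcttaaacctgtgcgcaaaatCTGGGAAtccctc
Fga: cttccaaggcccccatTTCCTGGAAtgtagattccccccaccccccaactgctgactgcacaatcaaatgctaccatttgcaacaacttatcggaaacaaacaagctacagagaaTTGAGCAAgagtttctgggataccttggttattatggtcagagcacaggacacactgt
Fgb: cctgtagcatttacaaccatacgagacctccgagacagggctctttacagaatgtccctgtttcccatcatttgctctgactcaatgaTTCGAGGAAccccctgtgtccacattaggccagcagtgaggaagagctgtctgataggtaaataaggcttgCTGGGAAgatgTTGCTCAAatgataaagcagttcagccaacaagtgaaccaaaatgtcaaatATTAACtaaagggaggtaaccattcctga
Fgg held CTGGGAA next to its start. Fga held a STAT match and, on the opposite strand, a C/EBP match, and a further HNF1 half-site lies in the 77 bases not printed, which the GENCODE gene model covers. Fgb held a match to each of the 4 motifs.

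Of 4 anticoagulant genes 0 were called by edgeR, and the log2 fold changes ran from -0.16 to 0.05. Proc, protein C, the highest of the arm per kb, measured 217, 235 and 199 CPM in steatosis and 204, 184 and 194 CPM in NASH. The groups overlapped, with a log2 fold change of -0.16 (SE 0.21, adjusted p = 0.702 in edgeR). Serpinc1 (antithrombin) had a log2 fold change of -0.10, and Pros1 (protein S, the cofactor of protein C) one of 0.05. Before division by exon length, Serpinc1 stood above Proc in steatosis, at means of 316 and 217 CPM. In NASH these means were 296 and 194 CPM. Serpind1, heparin cofactor II, named after its values were seen, measured 29.5, 29.6 and 29.6 CPM in steatosis and 28.6, 28.1 and 29.0 CPM in NASH. Its groups did not overlap, yet the log2 fold change was -0.05 (adjusted p = 0.896), and its within-group spread of 0.015 on the log2 scale was the smallest among the 38 genes. Scaled to the sum of other genes without TMM, the estimates of Serpinc1 and Serpind1 were above 0.

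Plg, plasminogen, the precursor of the fibrin-degrading protease plasmin, measured 217, 179 and 225 CPM in steatosis and 176, 183 and 272 CPM in NASH. The groups overlapped, and the log2 fold change was 0.02 (SE 0.25, adjusted p = 0.966 in edgeR). Serpinf2, alpha-2-antiplasmin, the main inhibitor of plasmin, measured 69.6, 80.8 and 95.3 CPM in steatosis and 99.98, 95.5 and 146 CPM in NASH. NASH 2 lay only just above steatosis 3, so the groups barely parted, at a log2 fold change of 0.47 (SE 0.25, adjusted p = 0.283). Cpb2, the carboxypeptidase that protects fibrin from plasmin, had a log2 fold change of -0.15. The 6 vitamin K-dependent genes (F2, F7, F9, F10, Proc and Pros1) had 3 estimates above 0 and 3 below, with 0 calls and a median of -0.08.

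The level per kb set a wide range. It divides CPM by the length of all annotated exons of a gene together, so the order of genes depends on that length. In steatosis C3 stood first at 192 ± 41.8 CPM per kb, followed by Kng1 at 171 ± 9.69, Fgg at 144 ± 57.3, Fgb at 124 ± 47.0 and Fga at 113 ± 93.9 (SD, n = 3). The library ranges of these 5 genes overlapped one another in steatosis. In NASH Fgg stood first at 223 ± 146, followed by Kng1 at 192 ± 55.1 and C3 at 159 ± 47.3. At the other end stood Pros1 at 3.10 ± 0.750, C2 at 1.53 ± 0.299 and Masp1 at 0.190 ± 0.0565 CPM per kb in steatosis. C2, like Cfb, shares exon bases with Gm20547 on the same strand, so its place cannot be read as a low level of its RNA. C9 was in place 23 in steatosis and 17 in NASH, C6 in place 31 and 24, Hc in place 16 and 9, and F2 in place 8 and 14.

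**Figure D4:**
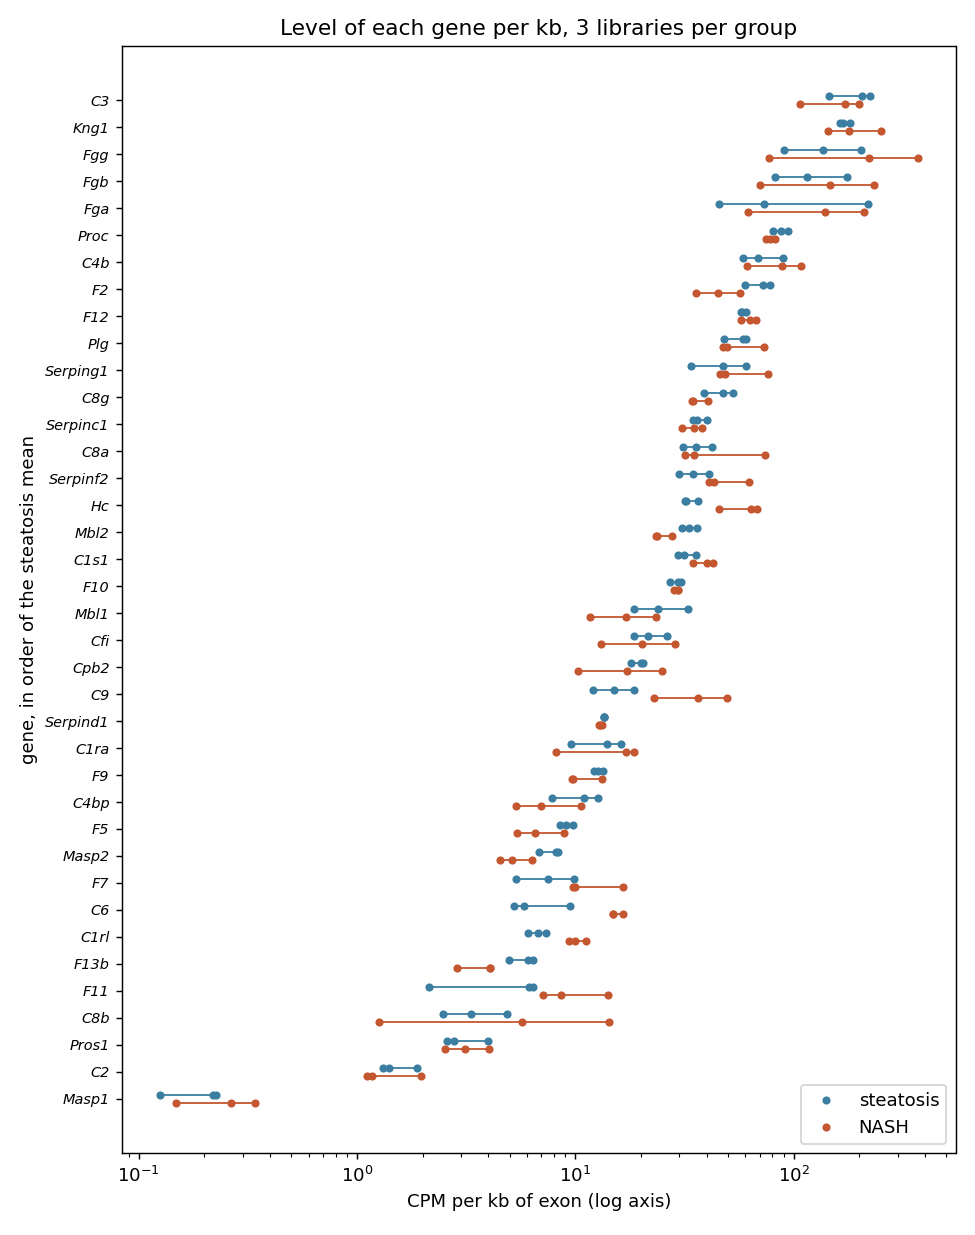
CPM per kb of exon on a log axis for each of the 38 tested genes, ordered by the steatosis mean, with 1 point per library and a line over the range of each group. C3, Kng1 and the fibrinogen chains are at the top, and Masp1, at 0.190 CPM per kb in steatosis, is at the bottom.

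Single libraries stood apart across the genes. NASH 3 had the highest level of 22 of the 38 genes and the lowest of 0, and NASH 2 had the lowest level of 22 and the highest of 0. Across all tested genes, NASH 3 was highest for 16.7% and NASH 2 lowest for 19.7%, against 57.9% of the 38 genes in each case. The median deviation of the 38 genes from their means was 0.43 in NASH 3 and -0.29 in NASH 2 on the log2 scale, and between -0.12 and 0.09 in the other libraries. NASH 3 is also the library with 22.3% of its counts at rRNA-like loci, and NASH 2 the one with the largest mitochondrial share, 83.9%. With mitochondrial and rRNA-like genes removed before scaling, NASH 3 was still highest for 22 and NASH 2 lowest for 21 of the 38 genes. The median within-group SD was 0.32 on the log2 scale for the 38 genes and 0.27 for all tested genes.

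**Figure D5:**
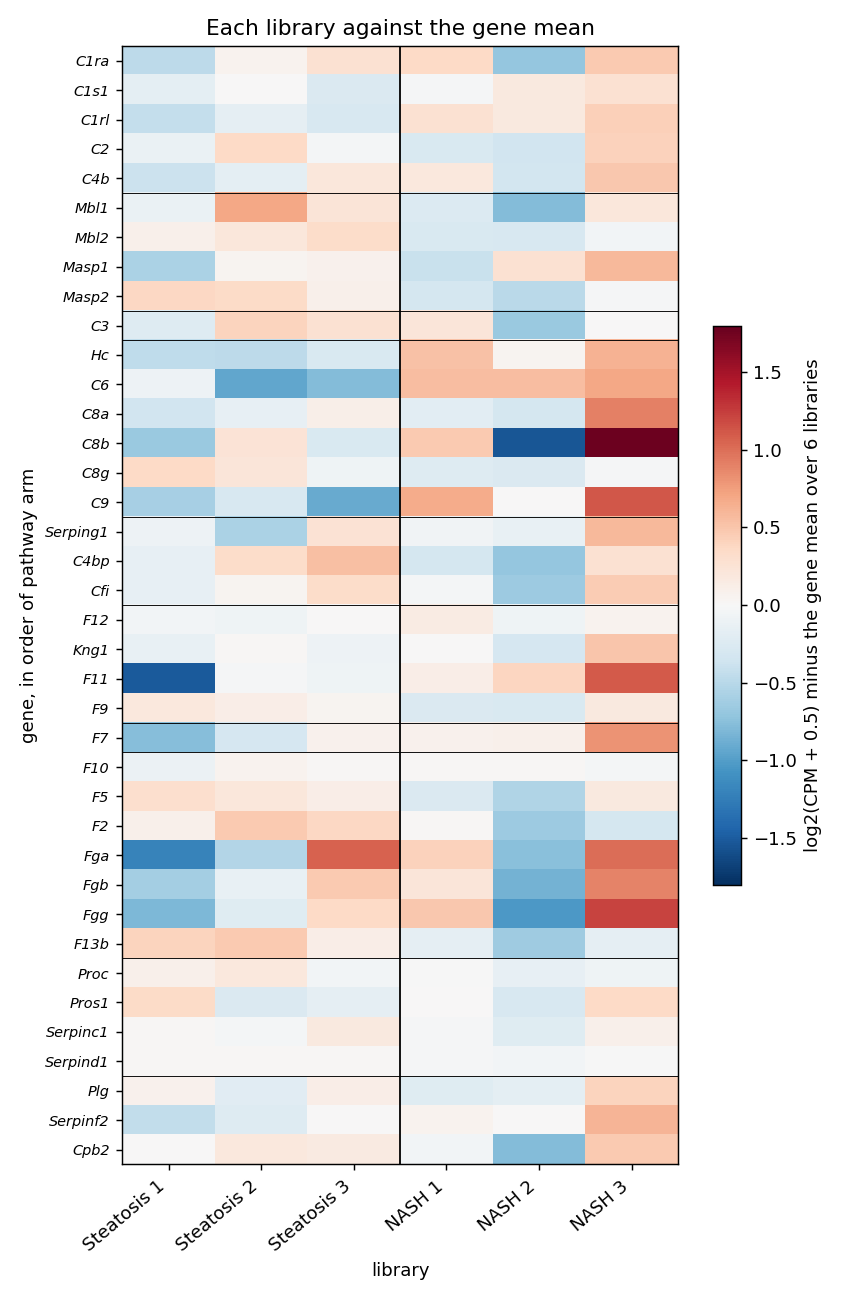
Difference of log2(CPM + 0.5) in each library from the gene's mean over 6 libraries, for the 38 tested genes in order of pathway arm, with libraries in columns. NASH 3 is red for most genes and NASH 2 blue for most, with median deviations of 0.43 and -0.29.

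Genes of the 2 cascades outside the list of 40 were read from a list of 62 recognition molecules, receptors, regulators and further factors, of which 47 were tested. Of these, 0 were called higher and 2 were called lower. Hrg, histidine-rich glycoprotein, which binds plasminogen, fibrinogen and heparin, fell from 209, 221 and 211 CPM in steatosis to 88.7, 105 and 127 CPM in NASH (log2 fold change -1.001, SE 0.23, adjusted p = 0.0363 in edgeR). Every NASH library of Hrg lay below every steatosis library. Hrg was not called in any fit that left out 1 library.

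Hrg was the single call among 12 other regulators of coagulation and fibrinolysis. Of 10 other recognition and activating factors 0 were called, and the smallest p belonged to Cfp, properdin, which stabilises the alternative C3 convertase. It measured 5.85, 8.45 and 8.35 CPM in steatosis and 12.9, 11.5 and 15.6 CPM in NASH, without overlap (log2 fold change 0.82, adjusted p = 0.0563 in edgeR). Of 12 further coagulation factors 0 were called, with the smallest p for Hgfac, the activator of hepatocyte growth factor (log2 fold change 0.59, adjusted p = 0.153). Of 12 liver promoter factors and interleukin-6 signalling genes 0 were called by edgeR. Cebpd, a C/EBP factor of the acute phase, had the smallest p, with means of 14.3 and 6.59 CPM in steatosis and NASH (log2 fold change -1.12, adjusted p = 0.0936). It measured 22.6, 12.3 and 7.94 CPM in steatosis and 5.77, 5.56 and 8.44 CPM in NASH, so the groups overlapped, and steatosis 1 stood well above the rest.

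Markers of the cells that make these proteins, or that could bring their RNA along, gave these values. Of 9 hepatocyte markers 2 were called lower, Apoh (log2 fold change -1.04, adjusted p = 0.0455 in edgeR) and Rbp4 (-1.05, adjusted p = 0.0459), and 0 were called higher. Among all tested genes 3.33% were called lower, and 3 of the 9 markers had a fitted change above 0. Of 10 endothelial markers 0 were called, and their summed level was 86.2 to 107 CPM in steatosis and 115 to 165 CPM in NASH. Stab1 alone had means of 37.1 and 62.9 CPM, and of the 10, 9 had a fitted change above 0 and 1 below. Of 10 Kupffer cell and macrophage markers 0 were called, at 40.1 to 47.1 and 42.4 to 76.8 CPM. Of 9 stellate cell markers 1 was lower, Dcn, and the sum was 71.9 to 86.1 and 54.4 to 69.6 CPM. That sum does not describe each marker: of the 9, 6 had a fitted change below 0 and 3 above. Dcn alone had means of 23.1 CPM in steatosis and 11.4 CPM in NASH. Of 5 tested platelet markers 0 were called, at 5.68 to 10.4 and 8.44 to 11.6 CPM. The neutrophil markers Ly6g and Mpo had at most 1 count in any library. Cholangiocyte, lymphocyte and erythroid markers, 4, 2 and 5 tested, gave 0 calls. The part of these cell types in the levels of complement and coagulation genes was not tested.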

How the data were processed

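Bulk RNA-seq was carried out on 3 steatosis and 3 NASH livers. PolyA+ RNA was made into libraries and read as pairs of 150 bp, per the labels' protocols, on an Illumina HiSeq instrument. The authors' deposited files hold raw counts per Ensembl gene. Per the submitters' processing notes, TopHat2 and HTSeq were used on mm10 (GRCm38); the sources used here give no annotation release, strand setting or rule for shared reads.

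Symbols, coordinates and exon lengths, each the union of all annotated exons of a gene, came from GENCODE. Counts were filtered, TMM-scaled and tested with edgeR 4.0.16 in R 4.3.3 (quasi-likelihood, Benjamini-Hochberg adjustment over 11375 genes, call at 0.05), after a check on simulated data. Standard errors, taken from the F statistic, and intervals are approximate. Alternatives were DESeq2 1.42.0, limma 3.58.1 (voom), other scalings and filters, the replicate number as a block, 4 libraries with few rRNA-like reads, each library left out, and other thresholds.

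Per-library values are given for called genes, for the gene of each arm with the largest change and the highest level per kb, and for genes without overlap at an unadjusted p under 0.05; others were chosen after their values were seen. Members and lists were chosen with earlier results of these data known. Values of some tested genes are not reported here. Total counts were 13909238 to 18002095 per library.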

Additional observations from a re-analysis of the deposited data

How the results depend on the processing

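C6 and C9 stayed called under DESeq2, limma-voom, the other scalings, removal of mitochondrial and rRNA-like genes and a stricter filter, and the median over the 38 genes ranged from -0.16 to 0.19 over all settings. Calls depended on filter, threshold and single libraries, and the cause was not tested. With 2 members higher and 0 lower, 169 and 379 of all genes higher and lower, and 0 and 2 other pathway genes as the reported counts, no filter on low counts gave 4 and 1 members (F11 and C8b joining higher, F13b lower), 535 and 912 genes, and 1 and 4 pathway genes. An adjusted p under 0.1 gave 4 and 1 members, 445 and 784 genes and 1 higher pathway gene, and a further demand for 2-fold change at 0.05 left 1 lower pathway gene. DESeq2 called 300 genes and 1 pathway gene higher, and its size factors in edgeR left 1 lower pathway gene. Scaling to other genes without TMM, which moved the median of all genes from 0.01 to 0.12 and that of members to 0.18, gave 222 genes lower and 0 lower pathway genes. The 4 libraries with few rRNA-like reads gave 0 members higher, 17 and 19 genes and 0 lower pathway genes. With the replicate block, 1 member (C6, adjusted p = 0.0325; C9 at 0.0747) was called higher and 1 pathway gene lower. Same-numbered libraries correlated at 0.03, -0.02 and 0.07 in their deviations, and not every library correlated best with its own number, so the numbers were not taken as pairs.

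Leaving out each library gave 0 to 1 members higher, 29 to 170 genes higher, 77 to 298 genes lower, and 0 pathway genes lower each time. Among the 38 genes the sign changed in at least 1 of these fits for C1ra, C2, C8a, C8b, Cfi, Kng1, F10, Fga, Fgb, Pros1, Plg and Cpb2. With 3 libraries a group, an exact permutation test of a single value cannot go below p = 0.1, and the low counts of Cfb and Masp1 limit what can be said of them.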
